A study of Rattus norvegicus with 16 samples.

Results

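The genes described here are 41 genes of the cell cycle and of proliferation, chosen by symbol, from the D-type cyclins of G1 to the motors and scaffold proteins of cytokinesis. A gene was kept where its count was 10 or more in at least 4 of the 16 libraries. 36 of the 41 were kept, of 13503 such entries among the 32754 gene entries in all, and all 36 were tested. By phase, 6 of 7 G1 and G1/S regulators, 10 of 10 S phase genes, 8 of 10 genes of G2 and mitotic entry, 8 of 10 genes of mitosis and its checkpoint and 4 of 4 cytokinesis genes were kept. Plk1, a mitotic kinase, had 0 to 14 counts, Birc5 (survivin), a subunit of the chromosomal passenger complex, had 0 to 9 counts, and Ube2c, an enzyme that helps to mark mitotic cyclins for degradation, had 3 to 22 counts, so these fell below the rule. E2f1 and Ccnb2 are not analysed here. A gene can pass this rule through 1 group: Ccne1 reached 10 counts in 4 KO PAB, 0 KO SHAM, 2 WT PAB and 1 WT SHAM libraries. Counts and medians over the kept genes are therefore descriptions.

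The samples were right ventricles of female Sprague Dawley rats aged 20 to 21 weeks. The 4 groups, each of 4 libraries, were KO PAB (ERalpha −/− rats with the pulmonary artery banded for 10 weeks), KO SHAM (ERalpha −/− rats with sham surgery), WT PAB (wild-type rats banded for 10 weeks) and WT SHAM (wild-type rats with sham surgery). Banding narrows the pulmonary artery and puts the right ventricle under pressure load, and ERalpha is an estrogen receptor encoded by Esr1. The labels do not describe the Esr1 mutation further, and nothing in them says that the 4 libraries of a group came from different animals. The p-values therefore measure only library-to-library spread, which may be technical.

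Total counts were 22168110 to 34718633 per library. Esr1 had 7 to 13 counts in KO PAB, 10 to 21 in KO SHAM, 70 to 131 in WT PAB and 91 to 139 in WT SHAM libraries, so each library had the level of its labelled genotype. Markers of cardiomyocytes were abundant in every library, with a summed level over 7 genes of 20813 to 40647 CPM (counts scaled to library size). 3 sham libraries stood apart in the adipocyte gene Adipoq (5 CPM or more): WT SHAM 2 with 56.5, WT SHAM 3 with 31.0 and KO SHAM 4 with 13.2 CPM. The summed level of 6 adipocyte markers was 27.6 to 89.1 CPM in these 3 and 0.868 to 1.78 CPM in the other 5 sham libraries, where 2 of the 6 markers were at 0 throughout. Markers of smooth muscle (826 to 2787 against 73.7 to 243 CPM over 4 genes), fibroblasts (1477 to 2397 against 746 to 972 CPM over 6 genes) and macrophages (223 to 323 against 93.5 to 155 CPM over 9 genes) were also higher in these 3 than in the other 5. So were markers of mesothelium (51.5 to 102 against 7.48 to 27.7 CPM over 6 genes) and T cells (16.6 to 26.3 against 7.85 to 13.4 CPM over 6 genes). The cardiomyocyte sum was lower in these 3, 20813 to 28818 CPM, than in the other 5, 32461 to 40647 CPM. KO PAB 3 had 5.51 CPM of Adipoq. Results on banding are given with all 16 libraries and without the 3 sham libraries, which leaves 3 KO SHAM and 2 WT SHAM libraries.

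A cell enters the cycle when D-type cyclins, raised by growth signals, bind the kinases Cdk4 and Cdk6 and release E2F factors from the retinoblastoma protein. E2F then turns on cyclin E and the genes that copy DNA, and later the MuvB proteins, which hold the genes of G2 and mitosis down as part of the DREAM complex in resting cells, join B-Myb and Foxm1 and turn these genes on. Adult cardiomyocytes rarely divide and grow mostly by enlarging, while fibroblasts, endothelial cells and macrophages of the heart can still cycle. RNA of a whole piece of ventricle does not tell these cells apart, and more cycling cells cannot be told apart from more RNA of these genes per cell.

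Of the D-type cyclin genes, Ccnd2 and Ccnd3 were higher after banding. With all 16 libraries and banding averaged over both genotypes, Ccnd2 rose 2.02-fold and Ccnd3 1.33-fold, and these were the only kept genes past an adjusted p of 0.05, 2 of 36. Over all 13458 genes tested, 5.09% passed in either direction and 3.24% were higher, so the share of 2 in 36 (5.56%) is near the background. DESeq2 called 3 of 36, Mcm5 in addition, beside 9.93% of all genes.

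Ccnd2, which encodes cyclin D2, had 79.0, 123, 99.7 and 142 CPM in KO PAB, 34.4, 52.0, 61.8 and 37.2 CPM in KO SHAM, 126, 55.4, 70.8 and 86.3 CPM in WT PAB and 47.1, 40.2, 38.1 and 73.6 CPM in WT SHAM libraries. All KO PAB libraries were above all KO SHAM libraries, while WT PAB 2 and 3 lay below WT SHAM 4. Averaged over genotypes, its log2 fold change was 1.01 (SE 0.20, adjusted p 0.0123). It was 1.26 (SE 0.28, adjusted p 0.056) in KO and 0.76 (SE 0.28, adjusted p 0.368) in WT. Without the 3 sham libraries the averaged change was 0.83 (SE 0.23) and no longer passed (adjusted p 0.0557).

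Ccnd3, which encodes cyclin D3, had 61.8, 60.7, 51.7 and 62.8 CPM in KO PAB, 40.7, 38.9, 42.4 and 44.5 CPM in KO SHAM, 70.3, 62.0, 53.2 and 52.5 CPM in WT PAB and 47.0, 40.98, 47.2 and 57.6 CPM in WT SHAM libraries. Again the KO groups did not overlap, and in WT only WT SHAM 4 reached into the range of the banded libraries. Averaged over genotypes, its log2 fold change was 0.41 (SE 0.08, adjusted p 0.0111) with all libraries and 0.37 (SE 0.08, adjusted p 0.0304) without the 3 sham libraries. In that second fit it also rose within KO, by 0.55 (SE 0.11, adjusted p 0.0362), and had 0.19 (SE 0.13, adjusted p 0.753) in WT.

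Ccnd1, which encodes cyclin D1, had 31.8, 50.5, 31.6 and 45.4 CPM in KO PAB, 15.3, 16.7, 19.9 and 38.9 CPM in KO SHAM, 44.4, 50.0, 37.7 and 29.3 CPM in WT PAB and 18.4, 51.4, 30.4 and 29.8 CPM in WT SHAM libraries. The highest sham library of each genotype, KO SHAM 4 and WT SHAM 2, was one of the 3 high in Adipoq. The log2 fold change averaged over genotypes was 0.56 (SE 0.23, adjusted p 0.167) with all libraries. Without the 3 it rose by 0.98 (SE 0.18, adjusted p 0.018), and within KO by 1.21 (SE 0.23, adjusted p 0.035).

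**Figure D1:**
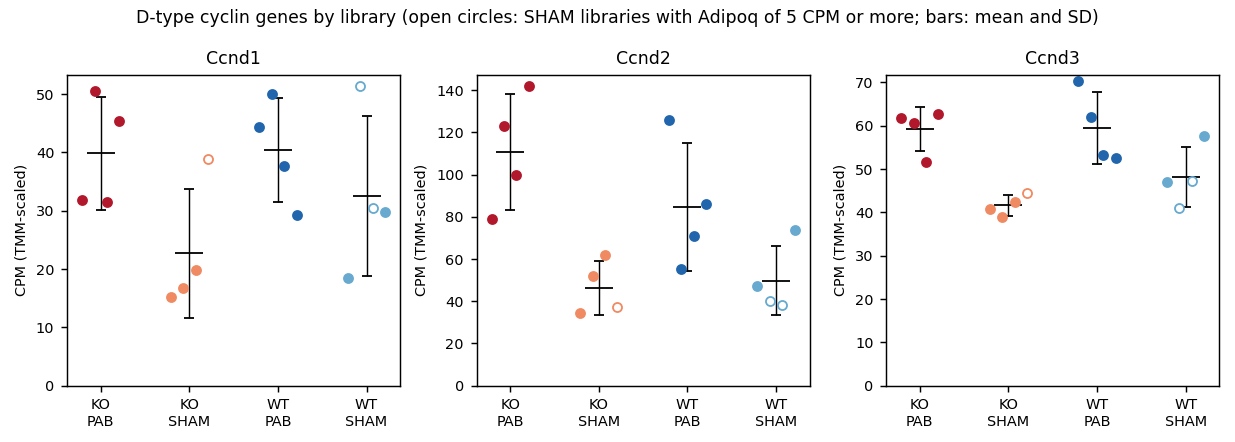
Level of Ccnd1, Ccnd2 and Ccnd3 in each library (CPM on the vertical axis, scaled by TMM; groups KO PAB, KO SHAM, WT PAB and WT SHAM along the horizontal axis; open circles are the SHAM libraries with Adipoq of 5 CPM or more, and bars are the mean and SD of 4 libraries). KO PAB libraries lie above KO SHAM libraries without overlap for Ccnd2 and Ccnd3, and the open circles of Ccnd1 in WT SHAM 2 (51.4 CPM) and KO SHAM 4 (38.9 CPM) reach the banded range.

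Of the other G1 regulators, the E-type cyclin Ccne1, which carries cells into S phase, had 0.640 to 0.744 CPM in KO PAB, 0.217 to 0.297 in KO SHAM, 0.193 to 0.388 in WT PAB and 0.0411 to 0.466 in WT SHAM libraries. KO PAB stood above the other 12 libraries. This gene lay outside the rule for named genes and was singled out after its values were seen, and its counts were low. Its log2 fold change in KO was 1.53 (SE 0.43, adjusted p 0.101). Ccne2, the other E-type cyclin, had averaged log2 fold changes of 0.10 with all libraries and −0.02 without the 3.

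Cdkn1a, which encodes the inhibitor p21 that halts the cycle under stress, had 145, 56.0, 93.0 and 81.9 CPM in KO PAB, 185, 120, 97.1 and 71.5 CPM in KO SHAM, 176, 77.8, 85.7 and 109 CPM in WT PAB and 147, 38.6, 117 and 81.5 CPM in WT SHAM libraries. Libraries of each group spanned about the same wide range. Banding averaged over genotypes gave −0.06 on the log2 scale (SE 0.29, adjusted p 0.929), and −0.27 (SE 0.28, adjusted p 0.599) without the 3 sham libraries.

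Genes of S phase, which copy DNA or make its building blocks, held no gene past the test in either fit. The median log2 fold change of the 10, averaged over genotypes, was 0.05 with all libraries and 0.16 without the 3, beside −0.02 and 0.01 over all genes tested. Pcna, the sliding clamp of DNA polymerase, had 29.9, 30.8, 30.1 and 30.6 CPM in KO PAB, 44.6, 28.4, 30.9 and 26.8 CPM in KO SHAM, 31.2, 22.8, 28.5 and 27.2 CPM in WT PAB and 34.8, 21.7, 32.5 and 29.5 CPM in WT SHAM libraries. The 4 KO PAB libraries were almost equal and lay inside the KO SHAM range. In the averaged comparison the log2 fold change was −0.11 (SE 0.11, adjusted p 0.61).

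Mcm5, a subunit of the helicase that opens DNA, had 3.20, 5.18, 4.29 and 4.22 CPM in KO PAB, 2.51, 2.72, 3.61 and 2.28 CPM in KO SHAM, 4.88, 2.68, 3.23 and 2.58 CPM in WT PAB and 2.53, 2.66, 1.86 and 2.67 CPM in WT SHAM libraries. KO PAB 1 lay below KO SHAM 3, and WT PAB 4 lay inside the WT SHAM range. Over both genotypes the log2 fold change was 0.53 (SE 0.16, adjusted p 0.0645), the smallest adjusted p of the phase, and 0.44 (SE 0.18, adjusted p 0.152) without the 3. The other helicase subunits differed among themselves, from 0.03 for Mcm2, 0.04 for Mcm7 and 0.05 for Mcm4 to 0.17 for Mcm6 and 0.33 for Mcm3, as averaged log2 fold changes with all libraries.

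Tyms, which makes thymidylate, ran the other way. It had 3.84, 6.36, 5.28 and 5.67 CPM in KO PAB, 8.00, 6.75, 7.52 and 7.66 CPM in KO SHAM, 3.92, 6.01, 6.07 and 7.29 CPM in WT PAB and 7.10, 6.67, 6.20 and 7.24 CPM in WT SHAM libraries. The KO groups did not overlap and the WT groups did. Its averaged log2 fold change was −0.36 (SE 0.12, adjusted p 0.0933), and −0.39 (SE 0.15, adjusted p 0.123) without the 3. Of the ribonucleotide reductase subunits, which make deoxyribonucleotides, Rrm1 had averaged changes of −0.02 and −0.13 and Rrm2 of 0.67 and 1.25 with and without the 3 sham libraries, and neither passed.

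Genes of G2, mitosis and cytokinesis gave different counts in the 2 fits. With all 16 libraries none of the 20 kept passed the test, and Ccna2 alone had an unadjusted p below 0.05. Without the 3 sham libraries 7 of these 20 rose when banding was averaged over genotypes: Cdk1, Top2a, Mki67, Tpx2, Kif11, Anln and Prc1, by 1.70-fold (Mki67) to 3.08-fold (Cdk1). With Ccnd1 and Ccnd3 that made 9 of 36 kept genes higher and none lower, where 3.83% of the 13583 genes tested were higher and 7.00% passed in either direction. At an unadjusted p below 0.05 the counts were 21 of 36 kept genes and 24.8% of all genes in this fit, and 7 of 36 and 22.7% with all 16 libraries. When KO PAB 3 was also left out, Ccnd1, Ccnd3 and Tpx2 still passed and were higher, 3 of 36, beside 2.23% of all genes.

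Promoters of such genes are known for a pair of short motifs. One is the CHR, read here as TTTGAA only, where MuvB binds, in the DREAM and in the B-Myb complexes. The other is the CCAAT box, read here as CCAAT. The E2F site, read here as TTTGGCGC or TTTCCCGC, is typical of S phase genes. RefSeq promoters (build GRCr8) were found for 27 of the 36 kept genes, and the 250 bases before each start were searched on both strands. Each motif was counted by itself, and neighbouring motifs may share end letters. TTTGAA was in 7 of 16 promoters of G2, mitosis and cytokinesis genes (43.8%), against 16.2% of all 33469 promoters. It was in 3 of 5 (60%) from G2 and mitotic entry and 3 of 4 (75%) from cytokinesis. In mitosis and its checkpoint it was in 1 of 7 (14.3%), below the share of all. CCAAT was in 12 of the 16 (75%), against 34% of all, and both together in 6 of the 16 (37.5%), against 5.87% of all. S phase promoters held CCAAT equally often, in 6 of 8 (75%), and TTTGAA in 1 of 8 (12.5%). The E2F motif was in none of the 16 and in 4 of 8 S phase promoters (50%), against 1.21% of all. A match describes the letters and is not a shown binding site. The last 100 bases before the start are given for Cdk1, Top2a, Anln and Prc1, as examples that rose without the 3 sham libraries and have a CHR within this stretch, and for Mcm5 and Tyms, which have an E2F motif there. The spans are chr20:19265193-19265292 (plus strand) for Cdk1, chr10:84473094-84473193 (minus) for Top2a, chr8:29197514-29197613 (minus) for Anln, chr1:143659381-143659480 (plus) for Prc1, chr19:13488713-13488812 (plus) for Mcm5 and chr9:120776084-120776183 (minus) for Tyms. Capitals mark the motifs, read on either strand, so that the CHR appears as TTTGAA or TTCAAA and the CCAAT box as CCAAT or ATTGG.
Cdk1: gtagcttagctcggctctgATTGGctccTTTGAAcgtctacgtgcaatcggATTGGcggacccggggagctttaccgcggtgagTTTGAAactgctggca
Top2a: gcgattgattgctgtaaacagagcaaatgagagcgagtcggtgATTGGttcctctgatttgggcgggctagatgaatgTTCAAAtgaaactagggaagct
Anln: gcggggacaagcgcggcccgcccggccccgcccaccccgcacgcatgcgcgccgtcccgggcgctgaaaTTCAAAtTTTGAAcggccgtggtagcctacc
Prc1: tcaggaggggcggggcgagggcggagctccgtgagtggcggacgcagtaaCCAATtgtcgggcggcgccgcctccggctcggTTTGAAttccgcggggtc
Mcm5: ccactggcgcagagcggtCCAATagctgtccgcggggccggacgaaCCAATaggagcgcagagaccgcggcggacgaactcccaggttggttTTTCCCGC
Tyms: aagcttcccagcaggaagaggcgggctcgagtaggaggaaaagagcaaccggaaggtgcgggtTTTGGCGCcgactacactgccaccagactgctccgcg

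The CHR nearest to the start began 16 bases before it in Cdk1, 22 in Top2a, 24 in Anln and 18 in Prc1. Of the 7 genes of these phases with TTTGAA on either strand, 5 rose without the 3 sham libraries (these and Mki67). Cdc20 and Kif23 did not pass, and of the 9 without TTTGAA, Kif11 alone passed. Other forms of the CHR were not searched, so these 9 are not shown to lack a CHR. In that fit 3.83% of all genes tested were higher. The shares among all genes with and without TTTGAA were not computed. Tpx2, which also rose, had no promoter to search. Whether the motif and the rise are linked was not tested. Anln held no CCAAT box in its 250 bases, and a pair of CHR motifs stood 1 base apart. Mcm5 and Tyms held no TTTGAA, and their averaged banding effects differed in sign, with neither past the test in edgeR with all libraries.

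Cdk1, the kinase that starts mitosis, had 0.414, 1.03, 1.58 and 1.38 CPM in KO PAB, 0.155, 0.614, 0.510 and 0.329 CPM in KO SHAM, 0.692, 0.743, 0.766 and 0.308 CPM in WT PAB and 0.0922, 1.23, 0.430 and 0.247 CPM in WT SHAM libraries. These are 2 to 43 counts. KO PAB 1 lay among the KO SHAM libraries, and WT SHAM 2 was above every WT PAB library. Averaged over genotypes, its log2 fold change was 0.87 (SE 0.43, adjusted p 0.245) with all libraries and 1.62 (SE 0.45, adjusted p 0.0495) without the 3 sham libraries.

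Top2a, which untangles DNA before chromosomes part, had 1.05, 2.29, 3.23 and 4.04 CPM in KO PAB, 0.837, 1.19, 1.40 and 1.78 CPM in KO SHAM, 2.04, 2.16, 2.17 and 0.887 CPM in WT PAB and 0.645, 4.27, 1.22 and 0.863 CPM in WT SHAM libraries. WT SHAM 2 was the highest of all 16, and WT PAB 4 fell to the level of the lowest sham libraries. The log2 fold change averaged over genotypes was 0.53 (SE 0.38, adjusted p 0.432), and 1.25 (SE 0.34, adjusted p 0.0442) without the 3.

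Mki67, whose product Ki-67 is a marker of cycling cells, had 2.11, 3.81, 4.73 and 4.29 CPM in KO PAB, 1.95, 2.19, 2.25 and 2.58 CPM in KO SHAM, 2.73, 2.88, 3.07 and 1.66 CPM in WT PAB and 1.57, 5.71, 2.15 and 1.60 CPM in WT SHAM libraries. The same libraries stood out as for Top2a: WT SHAM 2 was the highest, and KO PAB 1 and WT PAB 4 were the lowest of their groups. Banding averaged over genotypes gave 0.31 on the log2 scale (SE 0.26, adjusted p 0.507), and 0.76 (SE 0.21, adjusted p 0.0462) without the 3. In WT alone the change was −0.11 with all libraries and 0.71 without the 3, neither past the test.

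Tpx2, which builds the mitotic spindle around chromosomes, had 0.603, 1.26, 1.36 and 1.35 CPM in KO PAB, 0.310, 0.461, 0.425 and 1.02 CPM in KO SHAM, 0.884, 0.905, 1.05 and 0.540 CPM in WT PAB and 0.369, 1.79, 0.788 and 0.411 CPM in WT SHAM libraries. Among the sham libraries the 3 highest were the 3 high in Adipoq. Without them every banded library was above every sham library of its genotype, and Tpx2 was the 1 kept gene of 36 for which this held in both genotypes, beside 2.79% of all genes. In the averaged comparison the log2 fold change was 0.51 (SE 0.34, adjusted p 0.40) with all libraries and 1.32 (SE 0.27, adjusted p 0.0229) without the 3, and in KO alone 1.52 (SE 0.35, adjusted p 0.0455).

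**Figure D2:**
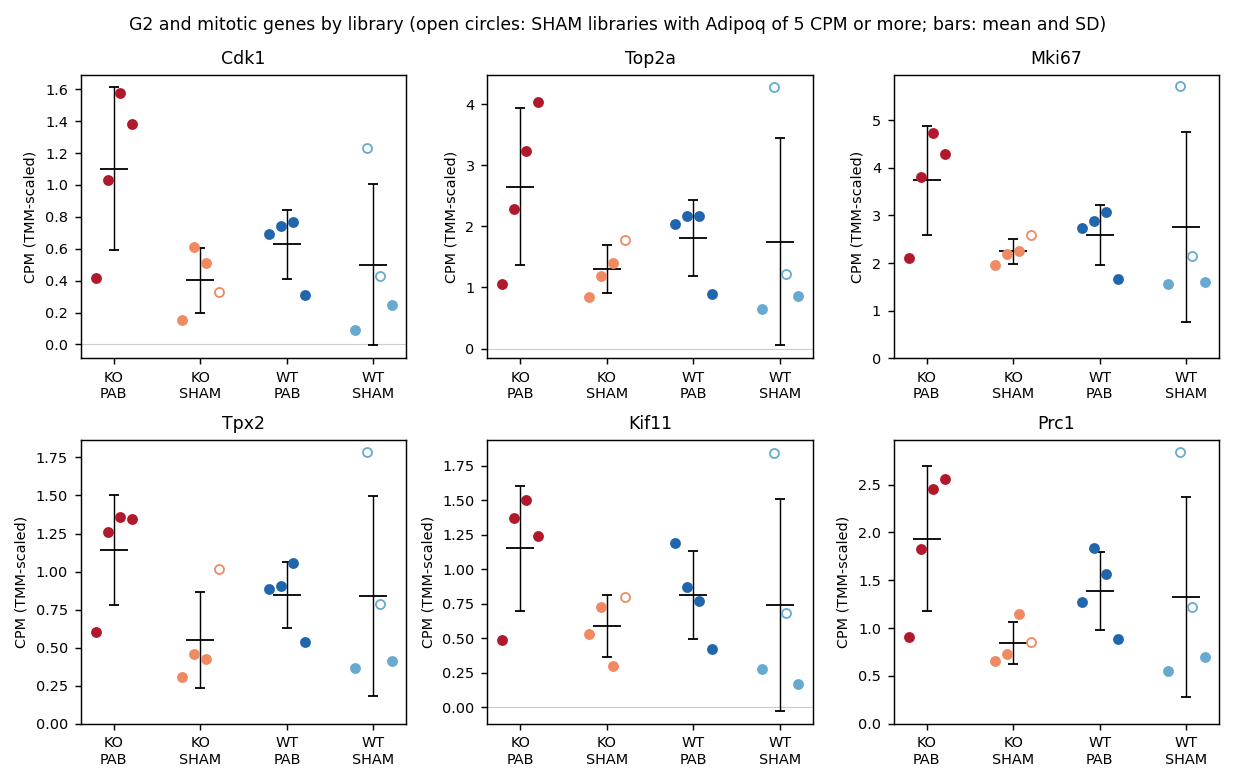
Level of 6 G2 and mitotic genes (Cdk1, Top2a, Mki67, Tpx2, Kif11 and Prc1) in each library (CPM, scaled by TMM, on the vertical axis; groups KO PAB, KO SHAM, WT PAB and WT SHAM along the horizontal axis; open circles are the SHAM libraries with Adipoq of 5 CPM or more, and bars are the mean and SD of 4 libraries). The open circle of WT SHAM 2 is the highest WT point in each panel, for example 5.71 CPM of Mki67, and KO PAB 1 and WT PAB 4 are the lowest points of their groups.

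Kif11, a motor that pushes spindle poles apart, had 0.490, 1.37, 1.50 and 1.24 CPM in KO PAB, 0.527, 0.729, 0.297 and 0.796 CPM in KO SHAM, 1.19, 0.872, 0.766 and 0.424 CPM in WT PAB and 0.277, 1.84, 0.681 and 0.164 CPM in WT SHAM libraries. KO PAB 1 was again among the KO SHAM libraries. Over both genotypes the log2 fold change was 0.52 (SE 0.42, adjusted p 0.48), and 1.51 (SE 0.37, adjusted p 0.0351) without the 3 sham libraries.

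Prc1, which bundles the microtubules between parting chromosomes, had 0.904, 1.83, 2.46 and 2.55 CPM in KO PAB, 0.651, 0.729, 1.15 and 0.851 CPM in KO SHAM, 1.27, 1.84, 1.56 and 0.887 CPM in WT PAB and 0.553, 2.84, 1.22 and 0.699 CPM in WT SHAM libraries. KO PAB 1 lay below KO SHAM 3, and WT SHAM 2 above all WT PAB libraries. Its averaged log2 fold change was 0.62 (SE 0.32, adjusted p 0.261), and 1.18 (SE 0.29, adjusted p 0.035) without the 3.

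Anln, which encodes anillin, a scaffold of the ring that pinches cells apart, had 0.603, 1.03, 1.28 and 1.49 CPM in KO PAB, 0.248, 0.345, 0.765 and 1.45 CPM in KO SHAM, 0.807, 0.711, 0.735 and 0.501 CPM in WT PAB and 0.277, 1.90, 0.860 and 0.247 CPM in WT SHAM libraries. KO SHAM 4 lay between the highest and the second highest KO PAB library, and WT SHAM 2 and 3 were above all WT PAB libraries. Averaged over genotypes, its log2 fold change was 0.17 (SE 0.43, adjusted p 0.851), and 1.35 (SE 0.33, adjusted p 0.0343) without the 3. No other kept gene had a wider gap between its averaged changes in the 2 fits.

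4 more genes of these phases did not pass in either fit. Ccna2, which encodes cyclin A2 of S and G2, had 0.264, 0.267, 0.440 and 0.922 CPM in KO PAB, 0.0930, 0.269, 0.170 and 0.247 CPM in KO SHAM, 0.423, 0.355, 0.511 and 0.347 CPM in WT PAB and 0.0461, 0.439, 0.107 and 0.206 CPM in WT SHAM libraries, which is 1 to 26 counts. The log2 fold change averaged over genotypes was 1.11 (SE 0.39, adjusted p 0.108), and 1.53 (SE 0.46, adjusted p 0.063) without the 3. With all 16 libraries the banded and sham ranges overlapped in both genotypes. Without the 3 they still overlapped in KO, while all WT PAB libraries lay above WT SHAM 1 and 4.

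Foxm1, a transcription factor of G2 genes, had 1.05, 1.22, 1.76 and 1.45 CPM in KO PAB, 0.899, 0.883, 1.06 and 1.24 CPM in KO SHAM, 1.04, 1.13, 1.28 and 1.27 CPM in WT PAB and 0.922, 1.32, 0.967 and 0.904 CPM in WT SHAM libraries. Only WT SHAM 2 and KO SHAM 4 reached far into the banded range, with KO SHAM 3 just above KO PAB 1. Banding averaged over genotypes gave 0.31 on the log2 scale (SE 0.15, adjusted p 0.24), and 0.46 (SE 0.17, adjusted p 0.121) without the 3.

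Cenpe, a motor that moves chromosomes to the spindle equator, had 0.678, 1.10, 1.72 and 1.17 CPM in KO PAB, 0.589, 0.652, 0.807 and 0.576 CPM in KO SHAM, 0.884, 0.872, 0.703 and 0.578 CPM in WT PAB and 0.461, 1.64, 0.824 and 0.493 CPM in WT SHAM libraries. KO PAB 1 lay inside the KO SHAM range, and WT SHAM 2 above all WT PAB libraries. In the averaged comparison the log2 fold change was 0.32 (SE 0.27, adjusted p 0.503), and 0.73 (SE 0.25, adjusted p 0.0929) without the 3.

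Kif23, a motor of the midzone in cytokinesis, had 0.527, 0.990, 1.21 and 1.70 CPM in KO PAB, 0.868, 0.537, 0.340 and 0.549 CPM in KO SHAM, 1.50, 0.646, 0.830 and 0.463 CPM in WT PAB and 0.737, 0.995, 0.609 and 0.370 CPM in WT SHAM libraries. The groups overlapped in both genotypes. Over both genotypes the log2 fold change was 0.63 (SE 0.31, adjusted p 0.234), and 0.77 (SE 0.38, adjusted p 0.225) without the 3.

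The remaining 9 kept genes of these phases were Ccnb1, Aurka, Bub1, Bub1b, Aurkb, Cdc20, Cenpf, Nusap1 and Kif20a. Their averaged log2 fold changes ran from −0.08 (Nusap1) to 0.43 (Kif20a) with all libraries, and from 0.11 (Aurka) to 1.05 (Bub1b) without the 3, and none passed. Aurka, a spindle kinase, and Bub1, a checkpoint kinase, had the smallest of these without the 3, 0.11 (SE 0.20) and 0.13 (SE 0.16).

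**Figure D3:**
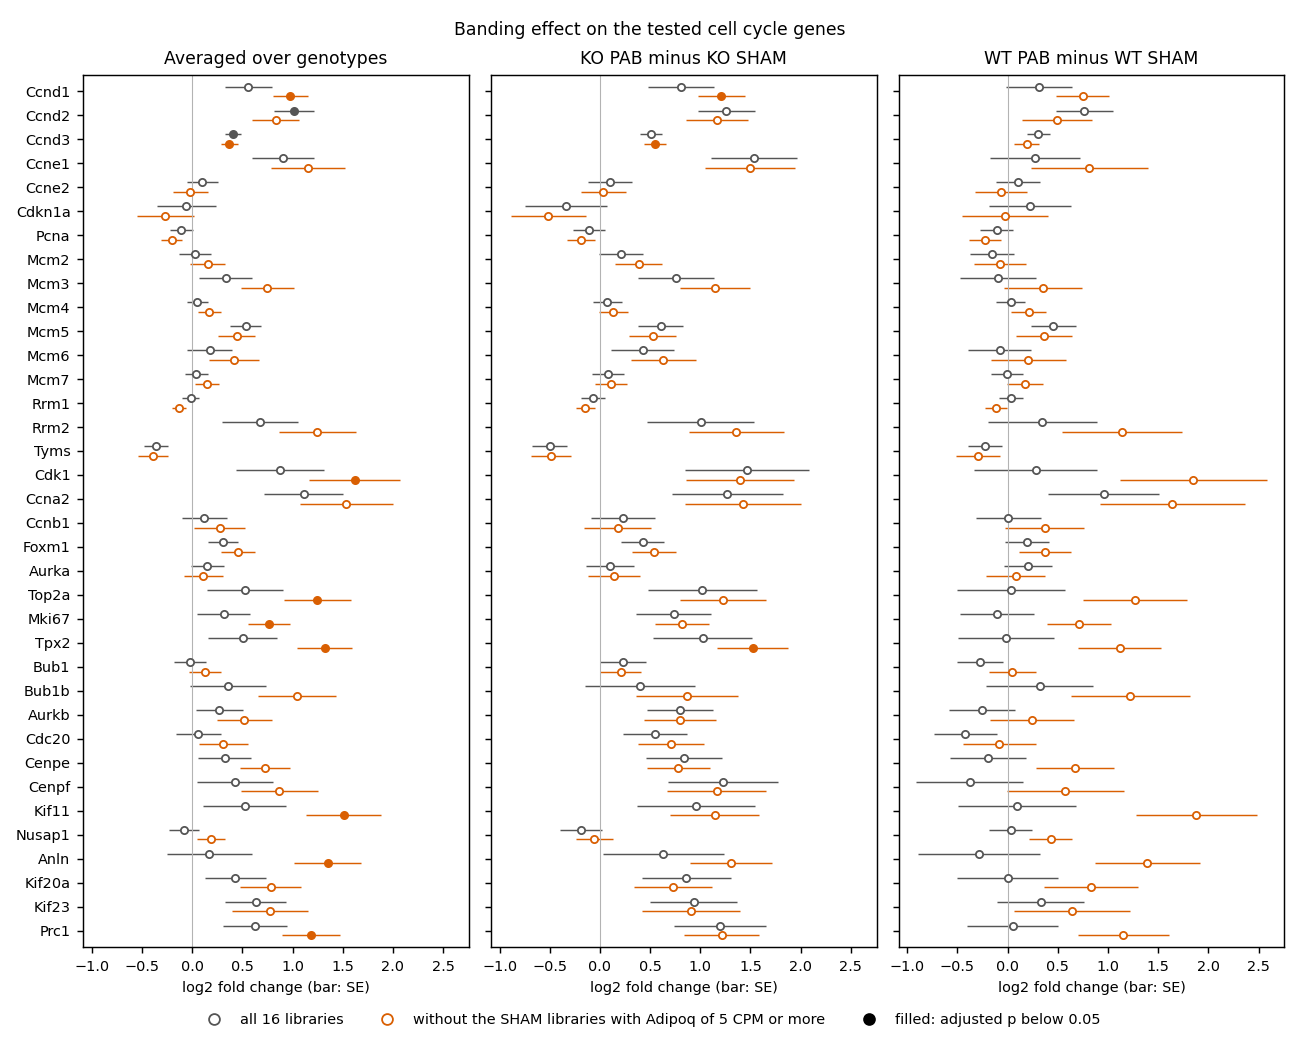
Log2 fold change of banding (horizontal axis, bars are the SE) for the 36 kept genes, in order of phase from Ccnd1 at the top to Prc1 at the bottom, averaged over genotypes, in KO and in WT. Grey is the fit to 16 libraries, orange the fit without the 3 SHAM libraries high in Adipoq, and filled points have an adjusted p below 0.05. In the averaged panel Ccnd2 and Ccnd3 are filled in grey and 9 genes in orange, and in WT no point is filled.

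The relative level of the 20 genes in each library shows which libraries carry this. For each gene the log2 level (CPM plus 0.5) was taken relative to its mean over the 16 libraries, and the median over the 20 was read per library. It was −0.19, 0.27, 0.49 and 0.51 in KO PAB, −0.39, −0.20, −0.15 and −0.06 in KO SHAM, 0.08, 0.08, 0.09 and −0.30 in WT PAB and −0.50, 0.67, −0.08 and −0.39 in WT SHAM libraries. WT SHAM 2 was the highest of the 16 and held the highest level of 12 of the 20 genes. WT SHAM 1 was the lowest and held the lowest level of 8 of the 20. For the G1 regulators the median relative level of WT SHAM 2, −0.40, was the lowest of the 16. That median mixes cyclins with the inhibitor gene Cdkn1a. WT SHAM 2 held the highest level of Ccnd1 (51.4 CPM) and the lowest of Cdkn1a (38.6 CPM) and Ccne2 (1.99 CPM). KO PAB 1 and WT PAB 4 were the banded libraries at sham level. For the 5 sham libraries low in Adipoq the values were −0.50 to −0.15, with a median of −0.39.

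The summed level of 9 macrophage markers moved in part with these genes. It was 124 to 349 CPM in banded libraries with a median of 149 CPM, 93.5 to 155 CPM with a median of 123 CPM in the 5 sham libraries low in Adipoq, and 223 to 323 CPM in the 3 high in it. Without the 3, the log2 fold change averaged over genotypes was positive for 9 of 9 macrophage markers, with a median of 0.36, and none passed the test. KO PAB 3 had the highest macrophage sum, 349 CPM, and WT SHAM 2 the highest of the sham libraries, 323 CPM. Other libraries did not follow. WT PAB 4 had the highest macrophage sum of WT PAB, 161 CPM, and the lowest relative level of the 20 genes there, −0.30. KO PAB 4 had 149 CPM at a relative level of 0.51. KO SHAM 4 and WT SHAM 3 had 285 and 223 CPM at −0.06 and −0.08. The 6 fibroblast markers tested had a median change of 0.04 and the 6 endothelial markers of 0.10, with none past the test. With all 16 libraries, banded ventricles were lower in the smooth muscle markers Myh11, Tagln and Cnn1, the mesothelial markers Msln, Lrrn4 and Muc16 and the T cell markers Cd2 and Cd3g, and none of these passed without the 3. The part of any of these cell types in the result was not tested.

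**Figure D4:**
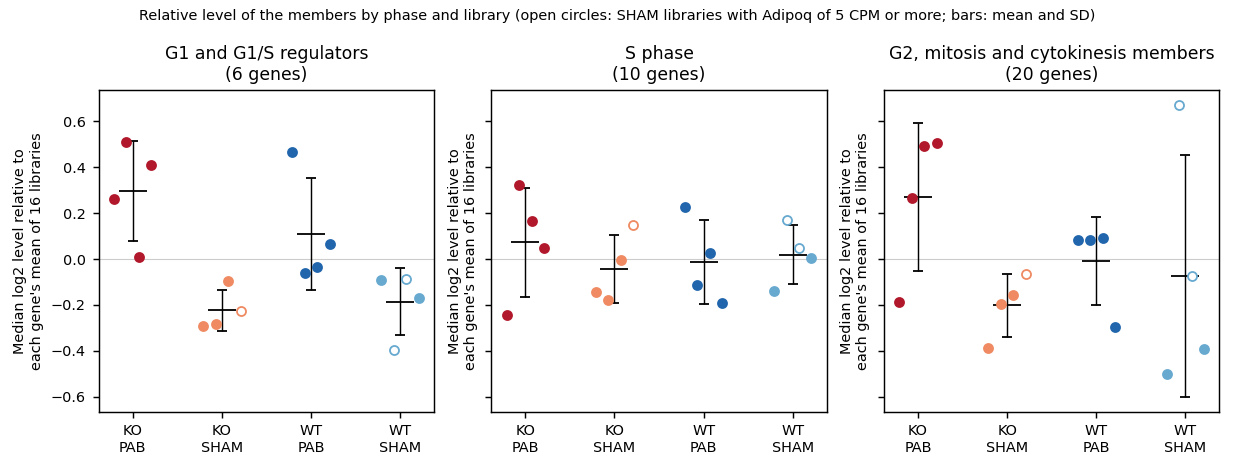
Relative level of the kept genes by phase in each library: 6 G1 and G1/S regulators, 10 S phase genes and 20 genes of G2, mitosis and cytokinesis. The vertical axis is the median log2 level relative to each gene's mean over the 16 libraries, groups KO PAB, KO SHAM, WT PAB and WT SHAM lie along the horizontal axis, open circles are the SHAM libraries with Adipoq of 5 CPM or more, and bars are the mean and SD of 4 libraries. In the panel of G2, mitosis and cytokinesis WT SHAM 2 stands at 0.67, above all other libraries, while in the G1 panel it stands lowest at −0.40. The G1 panel includes the inhibitor gene Cdkn1a beside the cyclins.

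Within each genotype the test found less. In KO with all libraries 0 of 36 kept genes passed in edgeR's quasi-likelihood test, beside 0.632% of all genes, and 13 of 36 had an unadjusted p below 0.05, beside 15.6% of all genes. DESeq2 called 3 of 36 there, Ccnd2, Ccnd3 and Ccne1, beside 3.78% of all genes. KO PAB and KO SHAM did not overlap, with KO PAB higher, for Ccnd2, Ccnd3 and Ccne1 (5.86% of all genes), and with KO PAB lower for Tyms (4.32% of all genes). Without KO SHAM 4 and the 2 WT SHAM libraries, Ccnd1, Ccnd3 and Tpx2 rose in KO, 3 of 36 beside 1.42% of all genes higher, and with KO PAB 3 also left out Ccnd1 and Ccnd3, beside 0.318%. With KO PAB 3 kept and KO SHAM 4 left out, groups did not overlap for 6 of 36 genes in KO, with KO PAB higher. These were Ccnd1, Ccnd2, Ccnd3, Ccne1, Mcm3 and Tpx2 (11.2% of all genes).

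In WT with all libraries 0 of 36 passed in edgeR, beside 0.00743% of all genes (1 gene), and 0 of 36 in DESeq2, beside 0.802%. In edgeR 2 had an unadjusted p below 0.05, Ccnd2 and Ccnd3, beside 11.7% of all genes. No kept gene was higher in all WT PAB than in all WT SHAM libraries, beside 2.60% of all genes. Without WT SHAM 2 and 3, 0 of 36 passed, and 0 of all 13583 genes did, and 9 of 36 had an unadjusted p below 0.05, beside 7.47% of all genes. WT PAB was then higher without overlap for 14 of 36 genes (8.11% of all genes), 13 of them from G2, mitosis or cytokinesis, but against only 2 WT SHAM libraries. Over the 20 genes of G2, mitosis and cytokinesis the median log2 fold change in WT was 0.02 with all libraries and 0.69 without the 3, and in KO 0.82 and 0.84. When 1 library at a time was left out, the WT median ran from −0.24 (without WT SHAM 1) to 0.55 (without WT SHAM 2) and the KO median from 0.61 to 0.99.

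The design also asks whether ERalpha alters these genes. No kept gene passed in KO PAB minus WT PAB, in KO SHAM minus WT SHAM or in the average of the pair in edgeR, beside 0.00743% of all genes (1 gene) in each of the 3 comparisons. DESeq2 called 0 of 36 as well, beside 0.0372% of all genes under banding, 0.00743% under sham and 0.0892% on average. At an unadjusted p below 0.05 in edgeR there was 1 of 36 under banding (4.52% of all genes), Ccne1, with a log2 difference of 1.15 (SE 0.42, adjusted p 0.999). There were 0 of 36 under sham (2.03% of all genes) and 0 on average (4.93%). Without the 3 sham libraries 0 of 36 passed in any of the 3, beside 0.00736% of all genes (1 gene) in each. At an unadjusted p below 0.05 there were then 3 of 36 under banding, Ccne1, Mki67 and Cenpe (7.20% of all genes), 1 under sham, Ccnd3 (4.35%), and 6 on average, Ccne1, Cdk1, Mki67, Cenpe, Kif11 and Anln (8.78%). Mki67 had 3.73 ± 1.15 CPM in KO PAB and 2.58 ± 0.631 CPM in WT PAB libraries (SD, n = 4 each). In the fit to all 16 libraries its log2 difference was 0.53 (SE 0.37, adjusted p 0.999). Ccnd2 had 111 ± 27.4 CPM in KO PAB and 84.6 ± 30.2 CPM in WT PAB libraries (SD, n = 4 each). In that same fit its log2 difference was 0.39 (SE 0.28, adjusted p 0.999).

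The difference of banding effects between the genotypes (KO minus WT) passed for 0 of 36 kept genes and for 0% of all genes in edgeR, and for 0 kept genes in DESeq2. At an unadjusted p below 0.05 there were 2 of 36, Aurkb and Cdc20, which encode a kinase of chromosome attachment and an activator of mitotic exit, beside 1.76% of all genes. Their differences of effect were 1.05 (SE 0.47) and 0.97 (SE 0.45) with all libraries, and 0.55 (SE 0.55) and 0.79 (SE 0.49) without the 3 sham libraries. For Mki67 the difference was 0.84 (SE 0.53) with all libraries and 0.10 (SE 0.41) without the 3, and for Top2a 0.99 (SE 0.76) and −0.04 (SE 0.63).

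Of 106 other genes of the cycle in 4 lists, 81 were tested. With all libraries 2 rose when banding was averaged over genotypes, beside the 3.24% given above. Fen1, which trims flaps in DNA copying, had 3.58, 5.79, 5.94 and 6.98 CPM in KO PAB, 2.88, 2.84, 3.31 and 2.77 CPM in KO SHAM, 7.69, 4.43, 3.99 and 4.16 CPM in WT PAB and 2.49, 3.19, 3.76 and 3.08 CPM in WT SHAM libraries. The groups did not overlap in either genotype, and its log2 fold change was 0.80 (SE 0.16, adjusted p 0.0127). Lin54, the subunit of the DREAM complex that reads the CHR, rose by 0.38 on the log2 scale (SE 0.09, adjusted p 0.0318), with 11.9 ± 1.03 CPM in KO PAB, 8.54 ± 0.626 in KO SHAM, 10.4 ± 2.20 in WT PAB and 8.61 ± 0.949 in WT SHAM libraries (SD, n = 4 each).

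Without the 3 sham libraries 6 of the 81 rose, Fen1, Lin54, Kif22, Espl1, Pbk and Ckap2, beside 3.83% of all genes higher. Cdc45, a part of the replicative helicase, fell by 0.63 on the log2 scale (SE 0.17, adjusted p 0.0398), which makes 7 past the test in either direction, beside 7.00% of all genes. Kif22, a motor on chromosome arms, rose by 1.38 (SE 0.38, adjusted p 0.0488). Espl1, which encodes separase, the protease that releases sister chromatids, rose by 1.84 (SE 0.47, adjusted p 0.0377), Pbk, a mitotic kinase, by 1.79 (SE 0.50, adjusted p 0.0489), and Ckap2, a microtubule protein, by 1.19 (SE 0.29, adjusted p 0.0342). Counts over the 16 libraries were low, 1 to 20 for Espl1, 1 to 22 for Pbk, 3 to 53 for Kif22 and 4 to 44 for Ckap2. The list of other cytokinesis genes, 4 of 5 tested, had none past the test in either fit. The median over the 81 was 0.03 with all libraries and 0.11 without the 3, beside −0.02 and 0.01 over all genes.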

How the data were processed

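RNA of right ventricle tissue (10 mg a sample) was sequenced from TruSeq stranded mRNA libraries, per the labels' protocols. The deposited values are expected counts per gene entry, given as whole numbers. STAR 2.5.3a, RSEM 1.3.0 and the build Rnor_6.0 are named in the submitters' processing notes. The annotation, the strand setting and how the authors rounded the values are not given in the sources used here. The table holds 32754 entries, of which 13748 were 0 everywhere, and 274 repeated symbols were kept apart.

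In R 4.3.3, edgeR 4.0.16 was used with TMM scaling, its default expression filter (13458 entries left) and the robust quasi-likelihood test on 4 group means over 16 libraries. P-values were adjusted by Benjamini and Hochberg over all entries tested, with a threshold of 0.05. CPM values are TMM-scaled, except that Adipoq was read as CPM of the unscaled total. Relative levels are log2 (CPM plus 0.5). Knl1, on a list of other genes, was matched through its older symbol Casc5. The members and lists were chosen with earlier results of these data known. Values in every library are given for members past the test in any comparison, with or without the SHAM libraries of Adipoq 5 CPM or more, for the 2 members a phase with the smallest p in averaged banding, and for Ccnd1, Ccnd2, Ccnd3, Cdkn1a, Mki67, Top2a, Cdk1 and Pcna. From other lists, members past the test were named, up to 4 a list.

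Alternatives were DESeq2 1.42.0, RLE size factors, no filter, a minimum of 10 counts in 4 libraries, a replicate block, only the groups compared, leaving out SHAM libraries high in Adipoq and leaving out each library. Leaving out every library high in Adipoq was chosen after seeing the data. The edgeR fit to 16 libraries was tested on simulated counts, for banding averaged over genotypes only. The other fits and comparisons were not tested in this way.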

Additional observations from a re-analysis of the deposited data

Results flagged for a closer look

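Of 72 groups of 4 libraries checked over 18 named genes, 7 held a library far from the other 3 of its group. The rule flags about 1 in 20 independent groups, or 3.6. These groups are not independent, since the same libraries recur over the genes. Some genes were also named because they passed without the SHAM libraries high in Adipoq. So 7 beside 3.6 is no test of chance. WT SHAM 2 stood high in Mki67 (5.71 CPM), Top2a (4.27 CPM) and Foxm1 (1.32 CPM), and it was also the library with the highest Adipoq. WT PAB 4 stood low in Top2a (0.887 CPM) and Cdk1 (0.308 CPM). KO PAB 1 stood low in Tpx2 (0.603 CPM). WT SHAM 3 stood low in Mcm5 (1.86 CPM).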

How the results depend on the processing

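With all 16 libraries, 2 kept genes rose when banding was averaged over genotypes, and 9 rose without the SHAM libraries high in Adipoq. Ccnd2 and Ccnd3 passed in each fit that left out 1 library, with adjusted p from 0.00685 to 0.0306 for Ccnd2. Mcm5 also passed with DESeq2 (adjusted p 0.0237), without WT PAB 4 (0.0485) and without KO SHAM 3, in 3 of 23 alternatives in all, with an adjusted p of up to 0.197. Ccnd1 also passed without KO SHAM 4 (0.0426) and Ccna2 without WT SHAM 2 (0.0417). In KO the count of kept genes higher was 0 with all libraries (0.513% of all genes higher), 3 with DESeq2 (2.45%), 3 with only the groups compared (0.963%), 3 without the SHAM libraries high in Adipoq (1.42%), and 2 without every library high in Adipoq (0.318%). With 1 library left out it was 0 to 2 (0% to 1.44% of all genes): 2 without WT PAB 1 (1.44%), and 1 without KO PAB 1 (0.806%), WT SHAM 2 (0.917%) or WT SHAM 4 (0.366%). The cause was not tested.

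12 of 54 gene results changed sign in some alternative, 10 of them in WT, as did 6 of 21 medians over phases or gene groups, all 6 in WT. In WT without the SHAM libraries high in Adipoq, the log2 fold change was 0.71 for Mki67, 1.12 for Tpx2, 1.39 for Anln, 0.67 for Cenpe and −0.025 for Cdkn1a, and without every library high in Adipoq it was 0.71, 1.11, 1.39, 0.67 and −0.028. With the replicate block it was 0.018 for Mki67 and 0.15 for Tpx2. Leaving out 1 library gave WT ranges of −0.036 to 1.25 for Cdk1, −0.23 to 0.99 for Top2a, −0.29 to 0.54 for Mki67, −0.24 to 0.68 for Tpx2, −0.22 to 1.09 for Kif11, −0.58 to 0.55 for Anln, −0.20 to 0.75 for Prc1, −0.39 to 0.35 for Cenpe, −0.071 to 0.58 for Kif23 and −0.082 to 0.50 for Cdkn1a. Averaged over genotypes, Cdkn1a ran from −0.21 to 0.093, and in KO Pcna from −0.18 to 0.082.

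The replicate block left the counts at 2 averaged over genotypes, 0 in KO and 0 in WT. Over 24 pairs of libraries with the same number, correlations of deviations ran from −0.62 to 0.56, with 7 over 0.1, and 3 of 16 libraries correlated best with their own number, so the numbers were not taken as pairing. Counts were low for genes such as Cdk1 (2 to 43) and Ccna2 (1 to 26), and the part of depth was not tested.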

Other observations

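Of 16 listed target genes of p53, the factor that raises Cdkn1a under stress, 15 were tested, and the list moved both ways. With all 16 libraries Gadd45a, a stress gene that slows the cycle, was the one past the test when banding was averaged over genotypes, and it rose by 0.70 on the log2 scale (SE 0.15, adjusted p 0.0156). It had 47.2, 49.4, 39.0 and 55.2 CPM in KO PAB, 28.6, 25.2, 30.0 and 20.9 CPM in KO SHAM, 49.2, 32.2, 32.1 and 26.4 CPM in WT PAB and 27.1, 15.5, 24.4 and 30.2 CPM in WT SHAM libraries, so the groups overlapped in WT and not in KO. Without the 3 SHAM libraries high in Adipoq, 3 of the 15 rose and 2 fell, where 7.00% of all genes passed in either direction and 3.83% rose. Gadd45a (0.53, SE 0.14) and Zmat3 (0.88, SE 0.22, adjusted p 0.0353) rose, and Perp (−0.79, SE 0.10, adjusted p 0.00882) and Sesn1 (−0.34, SE 0.08, adjusted p 0.0343) fell. Perp, which encodes a membrane protein of cell junctions, had 49.7, 46.0, 43.1 and 41.1 CPM in KO PAB, 84.6, 87.5, 82.5 and 49.9 CPM in KO SHAM, 43.2, 48.3, 55.6 and 64.9 CPM in WT PAB and 96.2, 40.6, 57.6 and 72.4 CPM in WT SHAM libraries.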
